A study of Rattus norvegicus with 11 samples.

Results

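A set of 9 interferon-induced genes was followed across rat lungs kept in room air, in hypoxia and in hypoxia with SU5416. They are the transcription factors Irf1 and Irf7, the ubiquitin-like modifier Isg15 and its protease Usp18, and the antiviral effectors Mx1, Mx2, Oas1a, Ifit2 and Ifit3. They were chosen by name: every probe set whose annotated symbol is exactly one of these 9 was taken, whatever its values. A probe set is a group of probes on an Affymetrix array that together give 1 value for a transcript. The rule found 11 of the 31042 probe sets tested and 9 of the 14217 genes they name. Mx2 and Ifit2 have more than 1 probe set each. For these genes the probe set of highest mean stands for the gene, and the remaining one is called the other probe set.

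All rats, the room air controls included, were of the Dahl salt-sensitive strain and weighed 250 to 350 g. Lungs were taken at 3.5 weeks, once the pulmonary vessels had been perfused. Total RNA of whole lung was labelled and hybridised to 11 arrays. Normoxia means room air with vehicle (n = 4), hypoxia means an inspired oxygen fraction of about 9.5% with vehicle (n = 4), and the third group had the same hypoxia with SU-5416, also written SU5416, an inhibitor of the receptors for vascular endothelial growth factor (n = 3). The groups ask what chronic hypoxia does to the lung and what SU5416 adds to it in a model of pulmonary hypertension; a further group given sorafenib was not analysed here. No group had SU5416 without hypoxia, so the agent alone and its combination with hypoxia cannot be told apart. The labels give neither age nor sex, and they do not say that each array is a different rat. The p-values therefore measure the spread between arrays, which could be technical in part.

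Interferons are cytokines, and those of type I are released when cells sense viral or misplaced nucleic acid. Type I interferons act through the receptor pair Ifnar1 and Ifnar2 and the Jak kinases, and the signal ends in a complex with Irf9 that binds interferon-stimulated response elements (ISRE) before the target genes. Interferon gamma acts through its own receptor and gamma-activated sites (GAS), and is a strong inducer of Irf1. In the lung, epithelium, endothelium and resident macrophages all respond, and the genes described here serve as the usual readout of that response.

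Promoter sequences are shown for the members in which such a site lies close to the gene start, because interferon signals reach their target genes through such sites. RefSeq promoter windows (build GRCr8) were matched for 5 members, Irf1, Irf7, Mx1, Oas1a and Ifit3. Promoters of Isg15, Mx2, Ifit2 and Usp18 are not shown. The 250 bases before each start were searched on both strands for the ISRE core GAAANNGAA and for the GAS TTCNNNGAA. The ISRE core was found in 3 of the 5 windows and the GAS in 2, against 8.12% and 7.67% of all 33469 promoters in the table. Each line gives 60 bases of the gene's own strand, 5′ to 3′, with the matches in capitals. Coordinates are chr10:38417756-38417815 on the plus strand for Irf1, chr1:205800069-205800128 on the minus strand for Irf7, chr12:41330394-41330453 on the plus strand for Oas1a and chr1:241527265-241527324 on the plus strand for Ifit3. The Irf1 capitals are a GAS that begins 142 bases before the start, and those of the other genes are ISRE cores.
Irf1: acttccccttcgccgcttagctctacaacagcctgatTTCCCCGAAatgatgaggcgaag
Irf7: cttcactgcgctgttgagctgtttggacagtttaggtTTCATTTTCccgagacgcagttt
Oas1a: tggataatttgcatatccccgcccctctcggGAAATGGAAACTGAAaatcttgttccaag
Ifit3: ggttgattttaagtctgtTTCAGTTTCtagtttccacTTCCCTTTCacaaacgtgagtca
The Irf7 core begins 68 bases before the start and lies on the reverse strand. Oas1a has 2 overlapping cores, at 41 and 35 bases before the start, and a GAS at 199 bases that lies outside the stretch shown. Ifit3 has 2 cores on the reverse strand, at 43 and 24 bases. The Mx1 window holds neither motif as spelled. A match describes letters only; binding was not measured in this study.

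The deposited values are log2 signals, 1 per probe set and array, and were used as deposited. Array medians lay between 7.802 and 8.005. The level of control probe sets for bacterial transcripts, 5.72 log2 at their 95th percentile, served as background, and all 11 member probe sets had a mean above it. A wide gap between the 3′ and 5′ probe sets of beta-actin is a common sign of shortened RNA or cRNA; it was 2.24 and 1.33 log2 on normoxia arrays 1 and 2 and lay between 0.51 and 0.87 on the other 9 arrays. All 10 markers of lung epithelium were above background on average. In whole lung, fewer cells of a type and less RNA per cell cannot be told apart, and this holds for every difference below. Signals of different probe sets are not on 1 scale per transcript, so each gene is compared only with itself.

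No interferon-induced gene passed the test between groups, set at an adjusted p under 0.05 (limma, two-sided, Benjamini-Hochberg over 31042 probe sets), while most of them varied widely between the arrays of the SU5416 group. In hypoxia against normoxia limma called 0 of the 11 probe sets, where it called 0.00644% of all probe sets, and 1 of the 11 was lower at an unadjusted p under 0.05, where 7.64% of all were. In hypoxia with SU5416 against normoxia 0 of the 11 were called (0.0612% of all) and 1 was lower at an unadjusted p under 0.05 (7.57% of all). In hypoxia with SU5416 against hypoxia 0 were called (0.0258% of all) and 0 had an unadjusted p under 0.05 (7.47% of all). Medians of the 11 differences were 0.09, -0.12 and -0.14 log2 in that order, beside -0.045, -0.038 and 0.014 over all probe sets. In the last of these comparisons 10 of the 11 lay below 0, where 47.6% of all probe sets did. The comparisons share arrays, so these counts are not independent of each other. A p above the threshold does not show equal levels: the 95% interval of the difference lay within ±1 log2 for 11, 7 and 8 of the 11 probe sets.

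**Figure D1:**
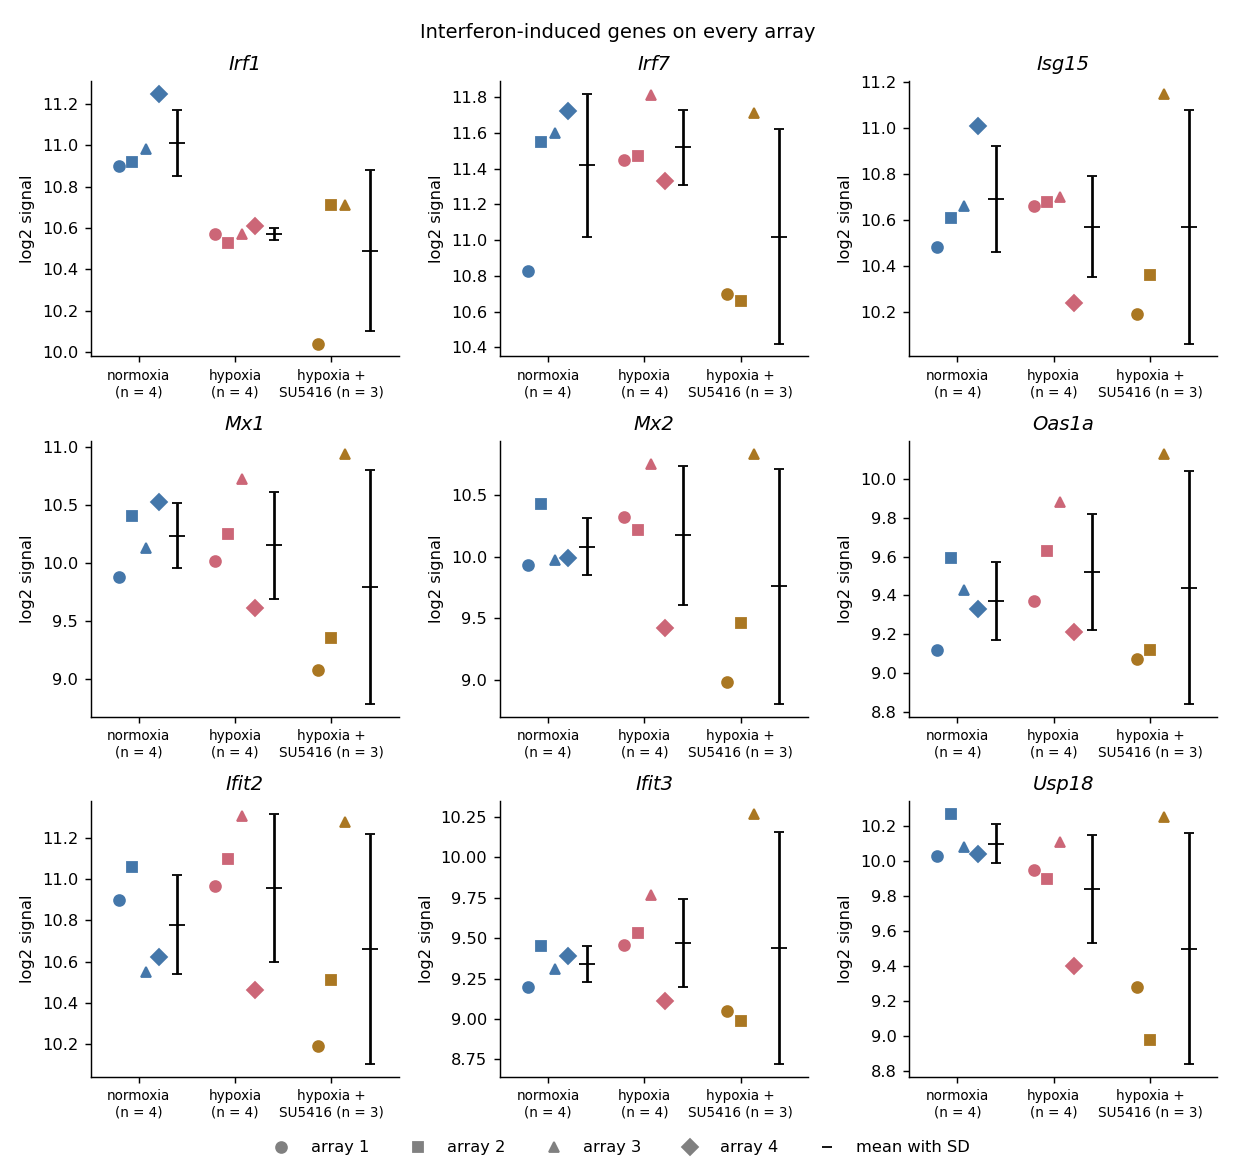
Log2 signal of each of the 9 interferon-induced genes on the 11 arrays (vertical axis, log2 signal; horizontal axis, group), with 1 point per array and a bar at each group mean. The third SU5416 array stands at the top of its group for 8 of the 9 genes, whereas Irf1 is the gene whose normoxia points all lie above those of both other groups.

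Irf1, a transcription factor induced by interferon gamma and other cytokines and itself an activator of antigen presentation genes, was the member with the smallest p in both comparisons with normoxia. Its signal (probe set 1368073_at) was 10.90, 10.92, 10.98 and 11.25 log2 on normoxia arrays 1 to 4. It was 10.57, 10.53, 10.57 and 10.61 on the hypoxia arrays, and 10.04, 10.71 and 10.71 on the SU5416 arrays. Every array of both treated groups thus lay below every normoxia array, and the hypoxia arrays were closer together than those of almost any other probe set: their SD of 0.03 stood at percentile 1.3 of the SDs of probe sets above background. Hypoxia was 0.44 lower than normoxia (difference -0.44, SE 0.16, 95% interval -0.79 to -0.09), or 1.36-fold, with an adjusted p of 0.374 in limma. Hypoxia with SU5416 was likewise lower (-0.53, SE 0.17, interval -0.90 to -0.15), or 1.44-fold, with an adjusted p of 0.268; with 1 array left out it ran from -0.64 to -0.30, the latter without SU5416 array 1. Neither passed. Of all probe sets, 4.08% were lower in hypoxia and 6.97% were lower in hypoxia with SU5416 without any overlap with normoxia, so 1 such gene among 11 probe sets is close to the share over the whole array. The treated groups differed from each other by -0.08 (interval -0.46 to 0.29), less than the spread of the SU5416 arrays.

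Irf7, the factor that amplifies the type I response by driving further interferon genes, overlapped between all 3 groups. Its signal (1383564_at) was 10.83, 11.55, 11.60 and 11.72 in normoxia, 11.45, 11.47, 11.81 and 11.33 in hypoxia, and 10.70, 10.66 and 11.71 with SU5416. The first normoxia array was low, as were SU5416 arrays 1 and 2, and the remaining arrays lay between 11.33 and 11.81. Group means ± SD were 11.42 ± 0.40 (n = 4), 11.52 ± 0.21 (n = 4) and 11.02 ± 0.60 (n = 3), and no neighbours in that order differed beyond their spread. The difference of the SU5416 group from hypoxia was -0.49 (SE 0.29, adjusted p 0.778 in limma), the most negative of the members in that comparison, and ran from -0.84 to -0.31 with 1 array left out.

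Isg15 is attached to other proteins in the manner of ubiquitin, and Usp18 removes it and also holds the type I receptor in check. Isg15 (1382314_at) stood at 10.48, 10.61, 10.66 and 11.01 in normoxia, 10.66, 10.68, 10.70 and 10.24 in hypoxia, and 10.19, 10.36 and 11.15 with SU5416. Its lowest and its highest array both belonged to the SU5416 group, and the mean was 10.57 in both treated groups against 10.69 ± 0.23 in normoxia. Usp18 (1389034_at) stood at 10.03, 10.27, 10.08 and 10.04 in normoxia, 9.95, 9.90, 10.11 and 9.40 in hypoxia, and 9.28, 8.98 and 10.25 with SU5416. Means were ordered normoxia (10.10 ± 0.11), hypoxia (9.84 ± 0.31) and SU5416 (9.50 ± 0.66), but 1 array of each treated group lay within the normoxia range. The largest of these differences, SU5416 against normoxia, was -0.60 (SE 0.28), with an adjusted p of 0.415 in limma, and ran from -0.97 to -0.34 with 1 array left out.

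Mx1 and Mx2 encode related dynamin-like GTPases that block virus replication, and they had the widest spread within groups among the members (residual SD 0.60 each). Mx1 (1371015_at) stood at 9.88, 10.40, 10.13 and 10.52 in normoxia, 10.01, 10.25, 10.72 and 9.61 in hypoxia, and 9.07, 9.35 and 10.94 with SU5416. Mx2 (1387283_at) stood at 9.93, 10.42, 9.97 and 9.99 in normoxia, 10.32, 10.21, 10.75 and 9.42 in hypoxia, and 8.99, 9.46 and 10.83 with SU5416. For both genes the SU5416 group held the lowest and the highest array of the study, and its SD of 1.01 for Mx1 and 0.95 for Mx2 stood at percentiles 98.3 and 98.0 of all SDs in that group. Mx1 in the SU5416 group was -0.44 from normoxia (adjusted p 0.706 in limma) and -0.36 from hypoxia. With 1 array left out these ran from -1.02, without SU5416 array 3, to -0.09, without SU5416 array 1, and from -0.93 to 0.00 without the same arrays. The differences of Mx2 were -0.32 and -0.41. The 2 genes are paralogs, and probes for one could read the other, so their values are not independent. The other Mx2 probe set (1369202_at) was dim, with 6.50 to 6.77 in normoxia, 6.37 to 6.82 in hypoxia and 6.60 to 6.89 with SU5416. It ran opposite to the first over the 11 arrays (r = -0.80), and statements on Mx2 rest on the brighter probe set.

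Oas1a, which makes the oligoadenylates that switch on RNase L, and the RNA-binding proteins Ifit2 and Ifit3 were likewise highest on SU5416 array 3 or hypoxia array 3, with smaller steps than Mx1. Oas1a (1371152_a_at) stood at 9.12, 9.59, 9.43 and 9.33 in normoxia, 9.37, 9.63, 9.88 and 9.21 in hypoxia, and 9.07, 9.12 and 10.13 with SU5416. Ifit3 (1376908_at) stood at 9.20, 9.45, 9.31 and 9.39 in normoxia, 9.46, 9.53, 9.77 and 9.11 in hypoxia, and 9.05, 8.99 and 10.27 with SU5416. In both, hypoxia array 3 was the high array of its group, hypoxia array 4 the low one, and the third SU5416 array was the highest of the 11. Ifit2 (1384180_at) stood at 10.90, 11.06, 10.55 and 10.62 in normoxia, 10.97, 11.10, 11.31 and 10.46 in hypoxia, and 10.19, 10.51 and 11.28 with SU5416. Its other probe set (1379568_at) ranged from 10.18 to 10.57, from 10.22 to 10.97 and from 9.98 to 11.23, and followed the first with r = 0.72 over the 11 arrays. Groups overlapped for all of these, and no difference exceeded 0.31 in size. Ifit2 and Ifit3 are members of 1 gene family, and cross-reading between their probes was not tested.

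**Figure D2:**
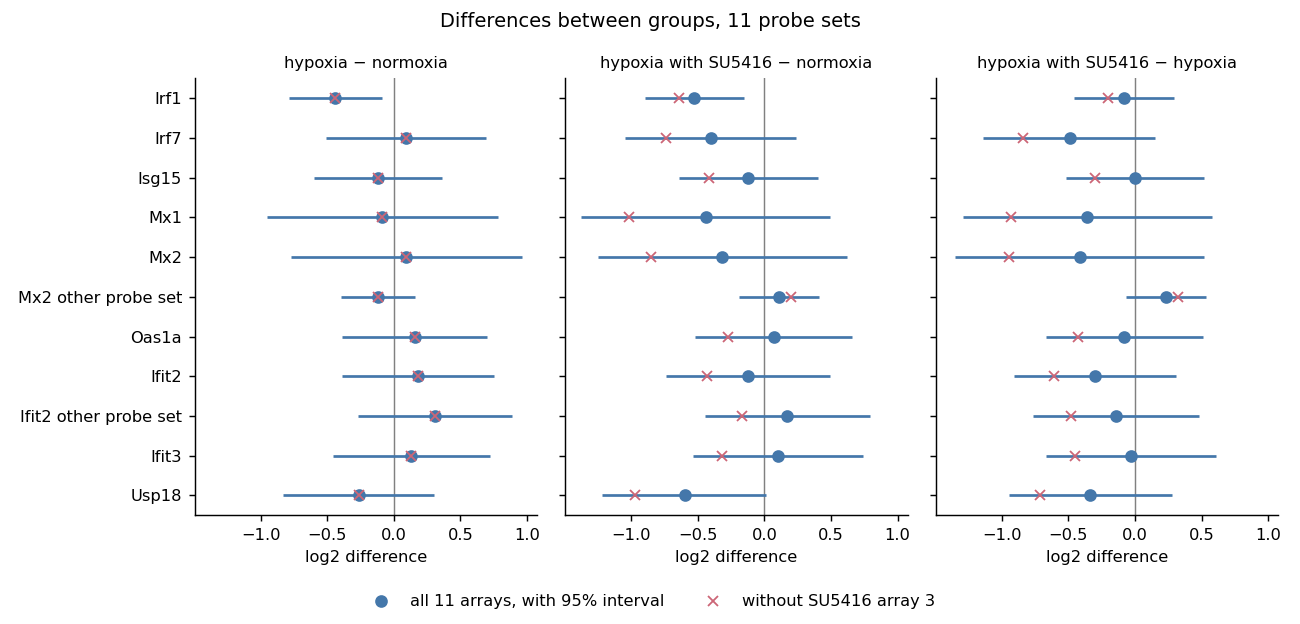
Differences of group means in log2 (horizontal axis) with 95% intervals from limma for the 11 member probe sets (vertical axis) in the 3 comparisons. The interval of Irf1 lies below 0 in both comparisons with normoxia, and the intervals of the other members include 0 in all 3.

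The members varied together from array to array within groups. The mean of the 9 genes was 10.14, 10.47, 10.30 and 10.43 log2 on the normoxia arrays, 10.31, 10.37, 10.62 and 9.93 on the hypoxia arrays, and 9.62, 9.79 and 10.81 on the SU5416 arrays. SU5416 arrays 1 and 2 and hypoxia array 4 were thus the lowest of the study, and the third SU5416 array was the highest. That array was the highest of its group for 8 of the 9 genes, where 27.0% of the 25190 probe sets above background were highest there. It was also the highest of all 11 arrays for 5 genes, and SU5416 arrays 1 and 2 were the lowest of all for 6 and 3. In hypoxia, array 3 was highest for 8 of the 9 (23.1% of all probe sets) and array 4 lowest for 8 of the 9 (21.9%). In normoxia, array 1, which had the widest beta-actin gap, was lowest for 8 of the 9 (27.0%). The part of RNA length in that last pattern was not tested.

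**Figure D3:**
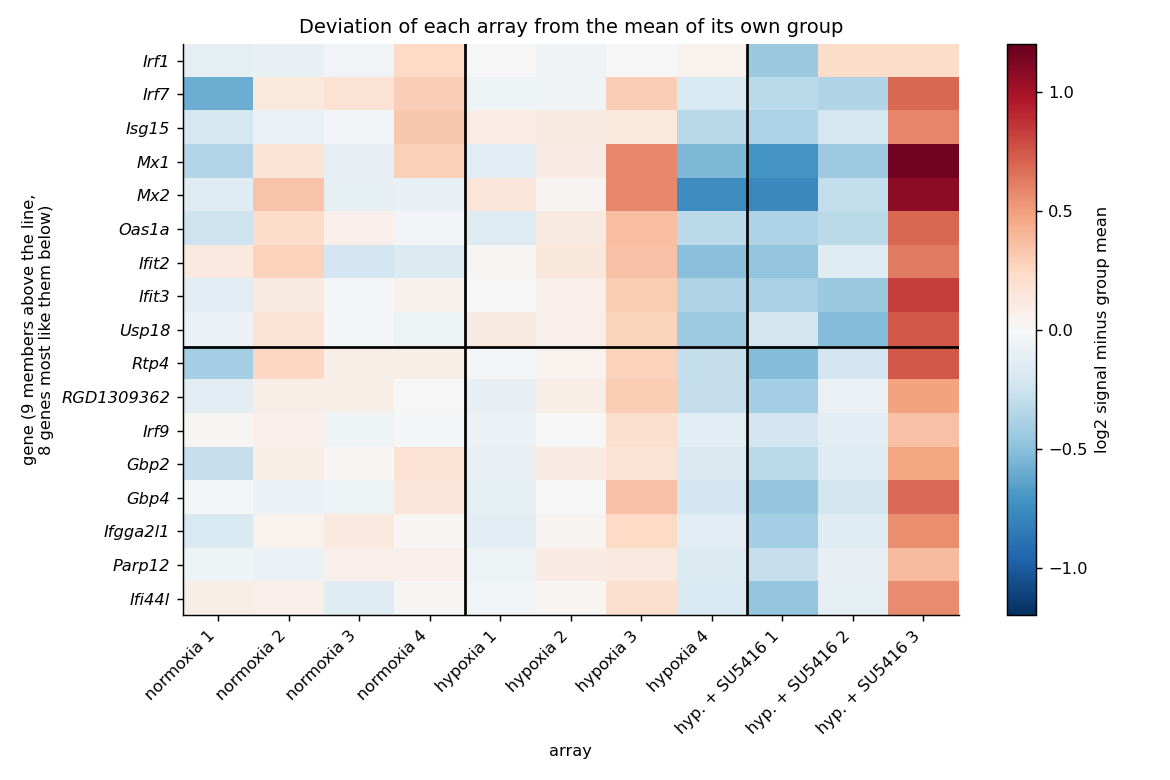
Deviation of each gene from its own group mean (colour, log2) on the 11 arrays (columns) by gene (rows). The 9 members are above the horizontal line. Below it are the 8 other genes chosen because their profile was most like that of the members. The third SU5416 array is above its group mean for all 9 genes, and the fourth hypoxia array is below it for 8 of them.

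Within the SU5416 group most members lay in the upper tail of the whole array. Mx1 was 1.73 log2 higher on the third array than on the mean of the first 2, or 3.31-fold, and Mx2 was 1.60 higher, or 3.04-fold. Ifit3 was 1.25 higher, Usp18 1.12, Irf7 and Oas1a 1.03 each, Ifit2 0.93 and Isg15 0.88. Each of these 8 steps stood at percentile 98.7 to 99.9 of all probe sets above background, whose median step was -0.02. Irf1 had a smaller step, 0.34 at percentile 91.9, since its signal was 10.71 on both the second and the third array. In hypoxia the fourth array lay below the mean of the first 3 by 1.01 for Mx2, 0.72 for Mx1, 0.67 for Ifit2 and 0.58 for Usp18, but not for Irf1, which was 0.05 higher.

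**Figure D4:**
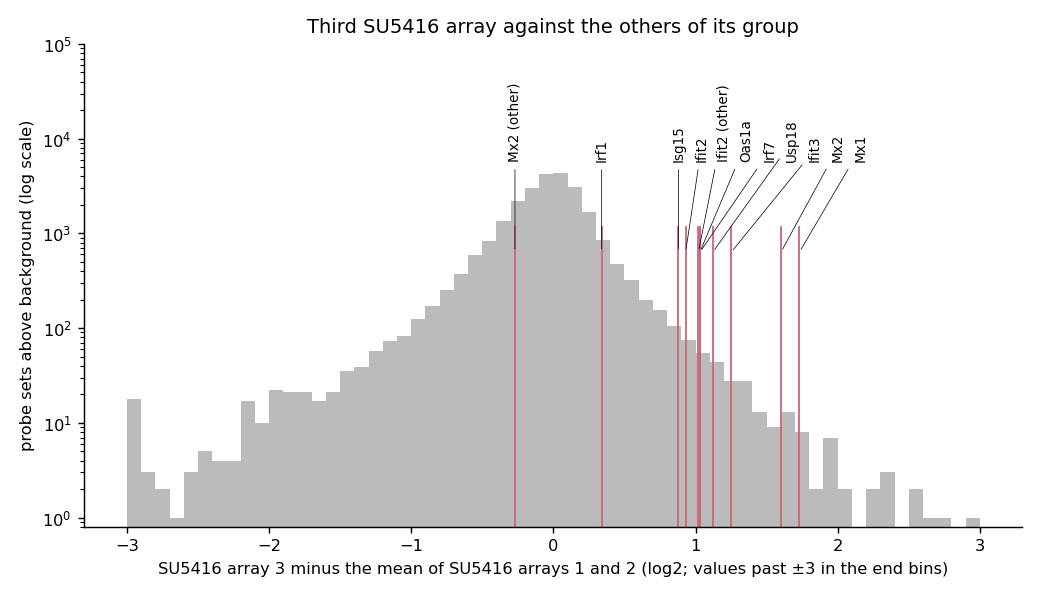
Histogram of the signal on the third SU5416 array minus the mean of the other 2 (horizontal axis, log2, with values past ±3 in the end bins) over probe sets above background (vertical axis, number on a log scale), with red lines at the member probe sets. All members except Irf1 and the other Mx2 probe set lie from 0.88 to 1.73, in the upper tail.

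The comparisons of the SU5416 group therefore rest on which of its arrays are counted. With each array left out in turn, the median difference of the members in both comparisons of the SU5416 group moved most on leaving out SU5416 array 3; this array was singled out after its values were seen. Without it, 10 of the 11 probe sets were lower than in normoxia, and the median difference was -0.43. With every array counted, 7 of the 11 were lower, where 55.5% of all probe sets were. Most members were high on the array left out, so their lower values here follow in part from that choice and test nothing. Usp18 was then -0.97 from normoxia, or 1.96-fold lower (adjusted p 0.198 in limma), and Mx1 was -1.02, or 2.03-fold lower (adjusted p 0.357). Against hypoxia alone, 10 of the 11 were lower, as with every array counted, and the median was -0.48. Irf7 then differed by -0.84, Mx1 by -0.93 and Usp18 by -0.71. Even so, 0 of the 11 passed at an adjusted p under 0.05 in limma in either comparison, and the lowest adjusted p in the second was 0.667. With each array left out in turn, the median of the members ran from -0.43 to 0.06 against normoxia and from -0.48 to 0.10 against hypoxia. Which of the 3 arrays is typical of the treatment cannot be told from 3 arrays.

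Correlations between the members describe the same pattern. With group means removed, Pearson's r over the 11 arrays for the 28 pairs of genes without Irf1 ran from 0.56 to 0.97, with a median of 0.88. The 8 pairs with Irf1 ran from 0.16 to 0.61, with a median of 0.40. The points share the arrays and the 3 group means, and the third SU5416 array weighs heavily: without it the 28 pairs ran from 0.10 to 0.91, with a median of 0.70. Among 17829 other probe sets above background, the median r with the mean member profile was -0.04 and the 99th percentile was 0.75. The most alike were Rtp4, a receptor transport protein (r = 0.964), the locus RGD1309362 (0.956), a probe set of Irf9, the factor of the type I pathway named above (0.954), the guanylate-binding proteins Gbp2 and Gbp4 (0.946 each), Ifgga2l1 (0.943), the ADP-ribosyltransferase Parp12 (0.926) and Ifi44l (0.916). Without the third SU5416 array these 8 correlations ran from 0.69 to 0.91. Of the 8 genes, 6 stand on the lists of interferon pathway genes described next.

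The rest of the pathway was read from 6 lists with 102 measured genes other than the members, and limma called 0 of them in any of the 3 comparisons. Of the interferons themselves, Ifnb1, Ifng and Ifnk, the 3 of 10 ligands with a probe set, had means below background. Of the interferon receptors and the proteins that carry their signal, 11 of 12 were measured, and by the probe set of highest mean 0 had an unadjusted p under 0.05 in limma in any comparison. The Irf9 probe set named above is not that of highest mean and was picked for its likeness to the members. It was lower with SU5416 than in normoxia (-0.40, SE 0.15, unadjusted p 0.0199 and adjusted p 0.313 in limma). Its groups barely separated: SU5416 array 3 and normoxia array 3 both stood at 9.87. Of all probe sets, 6.97% were lower in that comparison without overlap. Among the 11 measured genes, the smallest p in SU5416 against hypoxia belonged to the receptor chains Ifnlr1 (-0.28, SE 0.18) and Ifnar2 (-0.35, SE 0.22). Their adjusted p in limma were 0.792 and 0.793. The measured sensors, adaptors and other interferon regulatory factors numbered 12. Among them Irf3, which is held ready in resting cells and starts interferon transcription, was lower with SU5416 than on every normoxia array. That difference was -0.71 (SE 0.21, adjusted p 0.216 in limma), and 6.97% of all probe sets were as clearly separated. Against hypoxia Irf3 was also lower (-0.55, SE 0.21, adjusted p 0.599). Of 12 inhibitors, Ptpn6, a phosphatase of immune cells, was 0.53 higher with SU5416 than in normoxia (SE 0.22, adjusted p 0.361). With 1 array left out this difference ran from 0.32 to 0.63. Ptpn6 stood at 9.32 on normoxia array 1 and from 10.06 to 10.26 on the other normoxia arrays.

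Other targets of type I interferon held the largest share of genes whose profile resembled that of the members. Of 37 measured genes, 28 were lower in hypoxia than in normoxia, with a median of -0.10, and 26 were lower with SU5416, with a median of -0.18, where 57.6% and 55.5% of all probe sets lay below 0. At an unadjusted p under 0.05 in limma, 1 gene was lower in the first comparison, where 7.64% of all probe sets were. In the second, 3 were lower, close to the share of 7.57% over all probe sets. These 3 were Samhd1 (-0.50), Slfn4 (-0.92) and the nucleotide kinase Cmpk2 (-0.55). At such a p, 1 gene was higher in the second comparison: Ifitm1, a membrane protein that hinders virus entry (0.62, SE 0.16, adjusted p 0.175 in limma). Ifitm1 was higher on every SU5416 array than on any normoxia array, but the share of all probe sets with such a rise was not counted. The third SU5416 array was the highest of its group for 32 of the 37, with a median step of 0.54, and hypoxia array 4 was the lowest of its group for 23. With group means removed, 18 of the 37 correlated with the members' mean profile at r over 0.8, as did 98 of all 17829 probe sets (0.55%).

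Targets of interferon gamma and Irf1 were counted as their own list. Of 27 measured genes, 21 were lower in hypoxia than in normoxia (median -0.14), where 57.6% of all probe sets were (median -0.045). At an unadjusted p under 0.05 in limma, 3 of the 27 were lower, where 7.64% of all probe sets were. These 3 were the chemokine Cxcl11 (-0.35, SE 0.13, adjusted p 0.379), the cytokine Il15 (-0.26, SE 0.10, adjusted p 0.398) and the proteasome subunit Psmb8 (-0.32, SE 0.13, adjusted p 0.434). With SU5416 against hypoxia, 22 of the 27 were higher (median 0.12) and 5 had an unadjusted p under 0.05 in limma, where 47.6% of all probe sets lay below 0 with a median of 0.014 and 7.47% had such a p. Cxcl10, a T-cell chemokine, was 1.04 higher (SE 0.29, adjusted p 0.442 in limma). Ciita, the master activator of MHC class II genes, was 0.54 higher (SE 0.15, adjusted p 0.442). Psmb8 was 0.38 higher (SE 0.15, adjusted p 0.604) and Ccl2, a monocyte chemokine, 1.85 higher (SE 0.74, adjusted p 0.624). The Irf1 signal itself differed by -0.08 in that comparison. Of the 27 genes, 4 correlated with the members' profile at r over 0.8.

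Markers of immune cells that respond to or make interferon also varied between arrays, in part in another order than the members. The summed linear signal of 17 T and NK cell markers, as log2, lay from 13.06 to 13.31 in normoxia and from 12.58 to 13.09 in hypoxia. On the SU5416 arrays it stood at 12.51, 12.77 and 13.35, highest on the third. The third array was the highest of its group for 10 of the 17 markers (27.0% of all probe sets above background). It exceeded the mean of the first 2 by 2.04 for Gzma and 1.96 for Gzmb, but lay below that mean for Cd3d (-0.94) and Cd4 (-0.31), among others. On hypoxia array 4, where the members were low, the sum was 12.84, above hypoxia arrays 1 and 2. Of these 17 markers, 16 were lower in hypoxia than in normoxia (median -0.44) and 16 were lower with SU5416 (median -0.31). Of all probe sets, 57.6% and 55.5% were lower. All 7 measured B and plasma cell markers were also lower in both of these comparisons (medians -0.41 and -0.68), in which Irf1 was lower on every array. The part of these cells in the values of Irf1 and of the other members was not tested. The sum of 7 B and plasma cell markers lay from 11.86 to 12.02 in normoxia, from 11.37 to 11.91 in hypoxia and from 11.08 to 11.25 with SU5416, and its highest hypoxia value was on array 4. The sum of 13 monocyte and macrophage markers lay from 13.24 to 13.85, from 13.66 to 13.83 and from 13.89 to 14.44, again highest on the third SU5416 array. Among these markers Ms4a7, named after its values were seen, was called higher with SU5416 in both comparisons (adjusted p 0.00263 and 0.000923 in limma). It stood at 9.49, 8.58 and 10.28 on the SU5416 arrays, against means below background in normoxia and hypoxia. Of the 13 markers, 4 were lower with SU5416 than in normoxia and 3 were lower than in hypoxia. Adgre1 was lower on every SU5416 array than on any normoxia array (-0.87, adjusted p 0.105 in limma), as were 6.97% of all probe sets. Against hypoxia Adgre1 was also lower (-0.64, adjusted p 0.442). The sum of 6 neutrophil markers lay from 11.62 to 12.85, from 12.06 to 12.84 and from 12.84 to 13.50, highest on SU5416 array 1. On the SU5416 arrays most of this linear sum was Lcn2 alone, at 13.26, 12.42 and 13.10. Of the 6 markers, 3 were higher and 3 lower with SU5416 than in normoxia, with a median of -0.03. Of 6 markers of plasmacytoid dendritic cells, the main source of type I interferon in blood, 2 were measured, Tcf4 and Il3ra. Their sum ranged from 11.47 to 11.89, from 11.45 to 11.87 and from 11.36 to 11.66. With means of 11.58 for Tcf4 and 7.85 for Il3ra, this sum was nearly all Tcf4 and says little of such cells. The part of these cells in the step on the third SU5416 array was not tested. The sum of 10 lung epithelium markers lay from 15.90 to 16.42 over all arrays and was 16.06 on the third SU5416 array.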

How the data were processed

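Per the labels, total RNA of whole rat lung was hybridised to 11 arrays. The deposited values are log2 signals made by the authors with RMA, per the submitters' processing notes, with the version not given in the sources used here. Distributions differ between arrays, yet each has the same mean signal once 2% at either end is dropped, as scaling to a target gives, so the summarisation is uncertain. Of 31099 probe sets, 57 array controls were set aside; 20826 of those tested name 1 gene, 436 several and 9780 none. Background was taken from 27 Bacillus control probe sets; the means of 18.8% of all probe sets fell under that level.

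A mean per group was fitted to all arrays at once with limma 3.58.1 under R 4.3.3, leaving 8 residual degrees of freedom, and the procedure was checked on simulated data with known changes. Probe sets were called at an adjusted p under 0.05, and standard errors and intervals are from that model. The members and lists were chosen with earlier results of these data known. The rule for naming took all members, up to 4 genes of smallest adjusted p (or any called) in each interferon pathway list and comparison, of which only a part is given in the text, and the 8 genes most like the members' mean profile. SAM, named in the series text, was not run, since it draws other splits of the arrays. Alternatives were other normalizations, filters, fits, weights and call rules, the replicate number as a block, and each array left out. Replicate numbers did not pair arrays. Python 3.11.15 with pandas 2.3.3 and numpy 2.4.6 served for tables, matplotlib 3.10.9 for plots. The number of arrays limits the precision.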

Additional observations from a re-analysis of the deposited data

Results flagged for a closer look

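In groups of 4 arrays, an array was set apart when its gap to the nearest array exceeded 0.829 of the group's range (Dixon's 95% critical value). The 68 groups looked at came from the member probe sets, the mean of the 9 genes, the 8 genes most like the members and named pathway genes. Of these groups 4 gave such an array, close to the rate of about 1 in 20 that chance gives. Isg15 was lowest on hypoxia array 4, at 10.24 log2 against 10.66 to 10.70 on the others (gap 0.913 of the range). Mx2 was highest on normoxia array 2, at 10.42 against 9.93 to 9.99 (0.878). Cmpk2 was highest on normoxia array 4, at 10.10 against 9.94 (1.0), and lowest on hypoxia array 4, at 9.43 against 9.89 to 9.98 (0.836). The SU5416 group has 3 arrays and was not tested in this way.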

How the results depend on the processing

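No member probe set was called in limma under any alternative; the lowest adjusted p over the alternatives was 0.223 in hypoxia against normoxia, 0.126 in SU5416 against normoxia and 0.544 in SU5416 against hypoxia. At an unadjusted p under 0.05 the counts were 1, 1 and 0 of 11. Of 208 member differences per comparison, 9, 9 and 16 changed sign. In hypoxia against normoxia these were Irf7 (-0.01 with array weights, -0.14 without normoxia arrays 1 and 2), Mx1 (0.00 after median centring) and the other Mx2 probe set (0.03 after quantile normalization). In SU5416 against normoxia Ifit2 changed to 0.02 with weights and 0.08 without normoxia arrays 1 and 2. In SU5416 against hypoxia Isg15 changed to 0.01 (quantile) and 0.06 (weights), and Ifit3 to 0.06 (weights). With 1 array left out, differences from normoxia in hypoxia ran from -0.11 to 0.19 for Irf7, -0.28 to 0.09 for Mx1 and -0.10 to 0.35 for Mx2. Those in SU5416 ran from -0.42 to 0.06 for Isg15, -0.85 to 0.07 for Mx2, -0.27 to 0.26 for Oas1a, -0.43 to 0.11 and -0.17 to 0.46 for the Ifit2 probe sets and -0.32 to 0.32 for Ifit3. In SU5416 against hypoxia they ran from -0.20 to 0.14 for Irf1, -0.30 to 0.18 for Isg15, -0.43 to 0.10 for Oas1a, -0.48 to 0.14 for the other Ifit2 probe set and -0.45 to 0.20 for Ifit3. The members' median ran from -0.10 to 0.15, from -0.43 to 0.06 and from -0.48 to 0.10, with the lowest values of the last 2 without SU5416 array 3. The cause of these changes was not tested.

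Counts over all probe sets moved more. In hypoxia against normoxia 2 became 1 after quantile normalization, median centring, with only those groups or with trend and robust options, 0 without dim probe sets, 99 (57 higher, 42 lower) without normoxia arrays 1 and 2, and 1 to 14 with 1 array left out (14 without hypoxia array 4). In SU5416 against normoxia 19 became 43 (quantile), 214 (no dim probe sets), 8 (those groups only), 145 (trend and robust), 32 (weights), 108 (adjusted p under 0.1) and 8 to 38. In SU5416 against hypoxia 8 became 14 (quantile), 16 (trend and robust), 24 (weights), 16 (without normoxia arrays 1 and 2), 18 (adjusted p under 0.1) and 7 to 15.

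The replicate numbers share only a number: with the replicate number as a block, 1 and 6 probe sets were called in the comparisons with normoxia. Deviations of same-numbered arrays correlated at -0.12 to 0.13, and those of others at -0.13 to 0.14. The block changed no member's call.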
